A study of Mus musculus with 31 samples.

Results

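In the hippocampus of mice with 1 disrupted copy of Kmt2d, 403 regions were listed with less H3K4me3 than in wild type mice and, at the same place, with more H3K4me3 after the LSD1 inhibitor TAK-418. The regions were taken from a pair of lists of differential regions made by the authors. A region belonged to the set when its mean score was lower in vehicle-treated heterozygotes than in vehicle-treated wild type mice, and when it overlapped by at least 1 base a region whose mean was higher in TAK-418-treated than in vehicle-treated heterozygotes. Only autosomes and the X chromosome were used. The genotype list held 2015 regions, of which 1727 on these chromosomes were lower, and the members made up 23.3% of those. They overlapped 405 of the 1136 higher regions of the treatment list, or 35.7%.

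Both contrasts chose the members, so neither is tested here, and the scores in them are given as a description. ChIP-seq libraries were made from the hippocampus of C57BL6 mice aged 30 days, 1 mouse per H3K4me3 library. The 3 groups that chose the members were KMT2D+/+ mice given the vehicle methylcellulose (wild type vehicle), KMT2D+/bGeo mice given the vehicle (heterozygote vehicle) and KMT2D+/bGeo mice given TAK-418 (heterozygote TAK-418). KMT2D+/+ mice given TAK-418 enter only where other lists are compared, where peaks per library are counted and in the definition of recurrent regions. All mice were gavaged for 2 weeks from 2 weeks of age, at 1 mg/kg/day where TAK-418 was given. There were 4 H3K4me3 libraries per group, and 4 H3K4me1 libraries per group but for the wild types on TAK-418, with 3. The disrupted allele is present in all cells of the mouse, and the tissue was whole hippocampus, so fewer cells of a type and less mark per cell cannot be told apart.

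H3K4me3 sits on the nucleosomes around the start sites of active genes, and H3K4me1 lies at enhancers and on the flanks of promoters. KMT2D is a methyltransferase that works mainly at enhancers, and its loss on 1 allele is the usual cause of Kabuki syndrome. LSD1, encoded by Kdm1a, takes methyl groups off mono- and dimethylated H3K4, and it does not act on trimethylated H3K4.

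The starts nearest to members at gene ends ranged from poor to rich in CpG dinucleotides and in GC boxes, the letters GGGCGG on either strand. The 250 bases upstream of the start are shown for 7 of them, from RefSeq (GRCm38.p6), 5′ to 3′ on the strand of the gene, with CpG dinucleotides in capitals. Chst2, Kcmf1, Trim27, Zfp777 and Wnk2 are among the highest ranked members at gene ends, and Akap1 and Itpka are members whose wild type and heterozygote scores did not overlap. Trim27 and Wnk2 are shown for their few CpG, beside others with many. The start used lay 270 bp from the Trim27 member, 528 bp from that of Wnk2 and 0 bp from that of Zfp777. The nearest gene end lay 751, 774 and 1904 bp away. These 3 starts are thus not the outermost of their genes, and the stretches shown for them may lie inside the gene.
Chst2, chr9:95407271-95407520, minus strand: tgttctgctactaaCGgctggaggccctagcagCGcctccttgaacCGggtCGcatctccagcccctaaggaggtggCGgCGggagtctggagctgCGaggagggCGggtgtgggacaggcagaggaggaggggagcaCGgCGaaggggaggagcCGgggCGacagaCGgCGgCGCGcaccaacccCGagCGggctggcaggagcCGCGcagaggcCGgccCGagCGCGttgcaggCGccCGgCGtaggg
Kcmf1, chr6:72899980-72900229, minus strand: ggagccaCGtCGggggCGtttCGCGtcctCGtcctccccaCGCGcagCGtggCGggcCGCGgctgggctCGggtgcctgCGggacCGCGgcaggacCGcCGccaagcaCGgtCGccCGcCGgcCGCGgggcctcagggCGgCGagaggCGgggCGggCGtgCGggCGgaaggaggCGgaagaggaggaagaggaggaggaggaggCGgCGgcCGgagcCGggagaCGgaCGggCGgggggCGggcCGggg
Trim27, chr13:21179681-21179930, plus strand: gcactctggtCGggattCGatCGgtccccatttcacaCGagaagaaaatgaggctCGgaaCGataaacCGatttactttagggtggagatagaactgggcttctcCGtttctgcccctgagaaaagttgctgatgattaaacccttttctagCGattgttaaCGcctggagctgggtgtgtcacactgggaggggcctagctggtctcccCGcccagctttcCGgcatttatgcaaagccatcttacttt
Zfp777, chr6:48047795-48048044, minus strand: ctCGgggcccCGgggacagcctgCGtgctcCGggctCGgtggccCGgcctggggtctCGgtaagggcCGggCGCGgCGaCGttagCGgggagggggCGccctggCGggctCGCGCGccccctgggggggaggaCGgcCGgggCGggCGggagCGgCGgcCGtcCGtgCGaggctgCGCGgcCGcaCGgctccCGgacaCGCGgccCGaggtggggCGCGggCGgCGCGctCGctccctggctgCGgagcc
Wnk2, chr13:49148329-49148578, minus strand: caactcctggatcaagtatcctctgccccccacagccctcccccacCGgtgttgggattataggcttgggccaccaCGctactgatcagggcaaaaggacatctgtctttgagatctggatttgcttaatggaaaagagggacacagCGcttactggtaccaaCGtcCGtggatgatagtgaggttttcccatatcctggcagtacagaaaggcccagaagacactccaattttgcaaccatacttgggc
Akap1, chr11:88864587-88864836, minus strand: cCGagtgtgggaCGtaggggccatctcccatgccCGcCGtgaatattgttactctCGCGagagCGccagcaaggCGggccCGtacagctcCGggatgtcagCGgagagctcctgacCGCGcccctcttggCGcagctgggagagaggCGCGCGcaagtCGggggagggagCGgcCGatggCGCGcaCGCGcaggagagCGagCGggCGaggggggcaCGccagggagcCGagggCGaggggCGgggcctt
Itpka, chr2:119742087-119742336, plus strand: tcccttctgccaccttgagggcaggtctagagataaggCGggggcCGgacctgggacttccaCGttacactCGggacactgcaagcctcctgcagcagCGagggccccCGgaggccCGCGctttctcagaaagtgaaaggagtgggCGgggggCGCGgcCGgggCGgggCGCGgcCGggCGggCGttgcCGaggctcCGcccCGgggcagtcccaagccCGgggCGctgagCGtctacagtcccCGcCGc
Over the 12 stretches read in the same way for the highest ranked and the non-overlapping members, the number of CpG ran from 5 (Wnk2) to 42 (Zfp777) and that of GC boxes from 0 to 5 (Kcmf1). There were 10 CpG in the stretch at the Golgb1 member, whose nearest start in the table was that of Eaf2, 11 at Sptlc2, 12 at Trim27, 14 at Inpp1 and 16 at Pitpnc1. There was no GC box in the stretches at Golgb1, Wnk2 and Pitpnc1. The members that overlapped a promoter window lay at CpG-rich starts. Of the 169 members at gene ends and inner starts, 56 overlapped promoter windows, 65 windows of 300 bases (250 before to 50 after a start) of 59 genes in all. The median window held 34 CpG, beside 30 in the 470 windows at the other lower regions and 13 in all 21044 windows of protein-coding genes. A GC box stood in 93.8% of the members' windows, in 78.9% of those at the other lower regions and in 46.7% of all windows. A TATAAA box stood in 3.08%, 2.77% and 12.7% of the same sets, and CCAAT in 21.5%, 24.9% and 38.5%. The CRE TGACGTCA was found in 1.54% of the members' windows, beside 2.26% of all windows. These are counts of letters in the windows, with no statement on what binds there.

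The score behind each value is a whole number that the authors gave for each library and region, in their own normalized units, and it does not name the library. Positions in a cell (1 to 4) are therefore treated as unnamed replicates, on the premise that the order is the same in every row. The number of called peaks set the H3K4me3 libraries apart within every group: 1 of the 4 had between 13343 and 16750 peaks, and the other 3 had between 302 and 2281. The 4 libraries with many peaks were those whose sequencing index, as given in the labels, belongs to the first 2 of 4 commercial index sets. The 12 others had indexes of the last 2. All 15 H3K4me1 libraries also had indexes of the first 2 sets, and they had 88 to 456 peaks each. Peaks on the Y chromosome below 90 Mb were found in 1 of 4 wild type vehicle, 2 of 4 heterozygote vehicle and 3 of 4 heterozygote TAK-418 H3K4me3 libraries, and the part of sex in the results was not tested. In the 4 libraries with many peaks, 78.6% to 92.9% of 14 marker genes of excitatory hippocampal neurons had a peak within 2 kb of an end. The share was 37.5% to 62.5% of 8 markers of inhibitory neurons, 25% to 75% of 8 of astrocytes, 44.4% to 77.8% of 9 of the oligodendrocyte lineage and 0% to 12.5% of 8 of microglia. None of the 5 blood markers had one. No marker of any of these types had a member at an end, beside 0.896% of all 21883 protein-coding genes, so nothing is read from lists this short. Among lists not made of cell type markers, the share with a peak was 59.9% to 68.7% of 147 ion channels and 94.2% to 95.7% of 69 splicing factors. The share with a peak over all genes was not computed, so the markers do not single out a cell type.

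The shared vehicle heterozygotes alone produce regions of this kind. With 3 independent groups of equal size and spread and no effect at all, the genotype and the treatment difference are correlated at -0.5 through the shared group. Of regions lower in heterozygotes, 66.7% would then be higher in the treatment contrast, against 50% had the groups not been shared. Here 446 of the 1727 lower regions overlapped any region of the treatment list, and 403 of those, or 90.4%, overlapped a higher one. The remaining 43 overlapped only regions that were lower with TAK-418. In the whole lists, 86% of genotype regions were lower and 68.5% of treatment regions were higher. The members were picked by the same scores from lists that hold only regions past a threshold, so the 90.4% is a description and does not separate an effect from the shared group.

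At the edges of the rule, the smallest overlap of a member with its treatment region was 100 bp, near Gm14288, and the nearest lower region left out lay 200 bp from a higher one, near Gm32719. The lowest −log10 p of the authors among members was 1.31 in the genotype list (Smo) and 1.3 in the treatment list (Chrm3). The fold nearest to 1 was 0.953 for the genotype (Alkbh8) and 1.13 for the treatment (Sfi1).

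The members were a mixture of promoter and non-promoter regions. There were 157 (39%) within 2 kb of an end of a protein-coding gene, called gene-end members, and 12 (2.98%) within 2 kb of an annotated start inside a gene. Another 166 (41.2%) lay away from both and are called distal, and 68 (16.9%) overlapped recurrent regions, stretches that carried peaks in 8 or more libraries for both marks. The 1324 lower regions that were not members had another make-up: 86.4% lay at gene ends, 5.97% were distal and 0.755% were recurrent. Gene-end members had a median length of 500 bp, and 129 of the 151 with an annotated start on their chromosome reached within 1 kb of one. Distal members were short and uniform: the median was 350 bp, 144 of 166 were 300 to 400 bp long, and the median distance to a start was 118749 bp. Among the distal members 64 lay inside a protein-coding gene and 10 were on the X chromosome. These 10 were all the members on X and made up 71.4% of its 14 lower regions. The share was 23.3% over all lower regions and at most 41.3% on an autosome, chromosome 1.

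**Figure D1:**
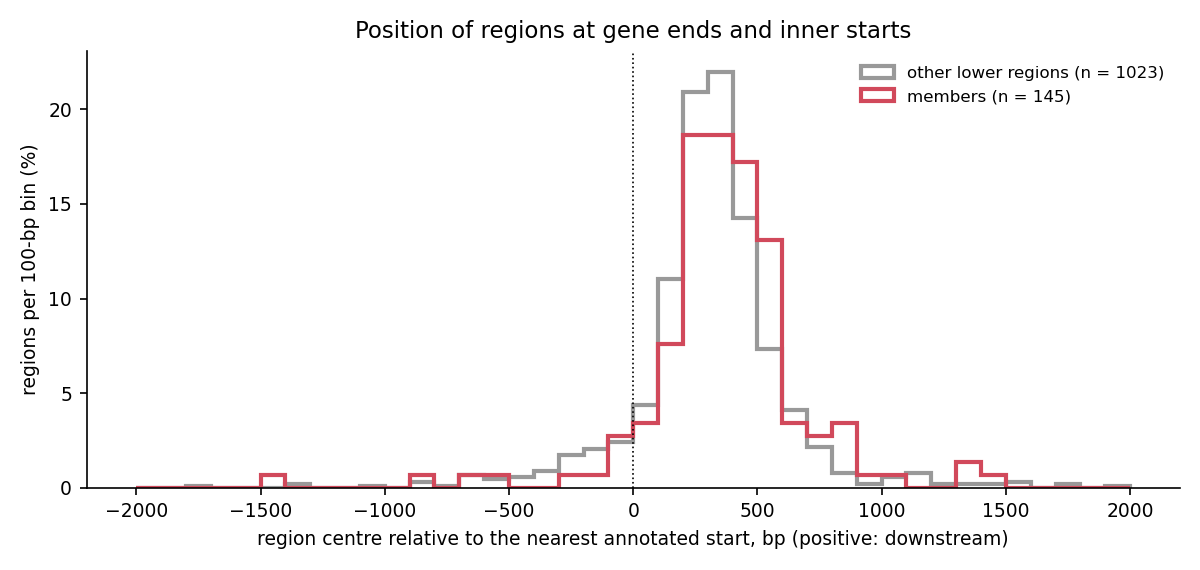
Position of region centres relative to the nearest annotated start (x axis, bp, positive downstream) as a share of regions per 100-bp bin (y axis, %), for members and other lower regions at gene ends and inner starts. Both curves peak downstream of the start, with medians of 365.5 bp for the 145 members and 310.5 bp for the 1023 other lower regions within 5 kb of a start.

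Where members did lie at genes, they lay downstream of the start. The centre of the region was downstream in 133 of 145 members (91.7%), with quartiles of 231.5 and 506.5 bp, and in 89.7% of the other lower regions. The difference between the 2 sets was small beside the spread within each.

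Gene-end members had a median fold of 0.582 in heterozygotes against wild type and of 1.53 with TAK-418 in heterozygotes. Distal members had 0.697 and 1.52, and recurrent members 0.787 and 1.32. Over all 403 members the median log2 ratio was -0.58 in the genotype list, beside -0.69 in all lower regions, and 0.58 in the treatment list, beside 0.60 in all higher regions. The libraries of a group overlapped those of the other group in nearly all members. Scores without overlap between groups were found for 3 members in the genotype list, beside 2.03% of all its regions, and for 1 member in the treatment list, beside 0.35% of all its regions. Both contrasts were used by the rule, and nothing is read from these shares.

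Members at gene ends were ranked by the smaller of both −log10 p, and the highest ranked are described first, whatever the role of the gene. Ate1 and Pitpnc1, the 2 first at gene ends by the 2-kb rule, were 123143 bp and 1881 bp from a start, had no gene start inside, and are taken up with the distal members.

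The region that joins the divergent starts of Lats1, a kinase of the Hippo pathway, and Pcmt1, a protein-repair methyltransferase, lay at chr10:7681051-7681900. Its 4 scores were 113, 209, 319 and 182 in wild type vehicle (206 ± 85.6, SD, n = 4) and 79, 174, 63 and 99 in heterozygote vehicle (104 ± 49.1), a fold of 0.504. In the treatment list the vehicle scores were 77, 201, 71 and 101 (112 ± 60.4) and the TAK-418 scores 210, 80, 358 and 129 (194 ± 122), a fold of 1.73. The highest score stood at position 3 in wild type vehicle, position 2 in heterozygote vehicle and position 3 with TAK-418, and the groups overlapped in both lists.

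The Chst2 region at chr9:95406051-95407350 covered the start of a gene for a sulfotransferase of carbohydrate chains. It scored 153, 266, 434 and 132 in wild type vehicle (246 ± 138) and 139, 297, 54 and 60 in heterozygote vehicle (138 ± 113). The overlapping treatment region had other borders and scored 35, 93, 2 and 23 with vehicle (38.2 ± 39) and 48, 32, 253 and 24 with TAK-418 (89.2 ± 109.6). Without the score of 253 the TAK-418 scores would lie within those of the vehicle group.

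Kcmf1 encodes a ubiquitin ligase, and its member at chr6:72899151-72899750 lay 229 bp from the start. The scores were 111, 111, 273 and 81 in wild type vehicle (144 ± 87.2) and 73, 160, 39 and 39 in heterozygote vehicle (77.8 ± 57.1). They were 82, 204, 44 and 46 with vehicle (94 ± 75.4) and 141, 31, 379 and 148 with TAK-418 (175 ± 146) in the treatment list. The 2 groups overlapped in each list, and the TAK-418 group held both the highest and the lowest score.

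At Inpp1, which encodes a phosphatase of inositol phosphates, the member at chr1:52817151-52817550 scored 19, 99, 124 and 89 in wild type vehicle (82.8 ± 45) and 14, 27, 49 and 56 in heterozygote vehicle (36.5 ± 19.4). With TAK-418 the scores were 173, 14, 179 and 73 (109.8 ± 80.2) against 23, 55, 77 and 56 with vehicle (52.8 ± 22.3). Here TAK-418 had high scores at positions 1 and 3, and the groups overlapped in both lists.

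Zfp777 encodes a zinc finger protein, and an annotated start of the gene lay within the member at chr6:48047701-48048100. Scores were 38, 115, 130 and 57 in wild type vehicle (85 ± 44.4) and 1, 97, 40 and 21 in heterozygote vehicle (39.8 ± 41.4), and 7, 162, 62 and 36 against 88, 62, 241 and 117 in the treatment list. The folds were 0.468 and 1.9, with overlap in both lists.

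The other members in this ranking had folds of the same size. Trim27, a RING-finger ubiquitin ligase, stood at 0.529 and 2.14, Dym, needed for Golgi organization, at 0.456 and 2.11, Sptlc2, a subunit of the enzyme that starts sphingolipid synthesis, at 0.497 and 1.86, and Wnk2, a kinase, at 0.504 and 1.84. Their groups overlapped in both lists.

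**Figure D2:**
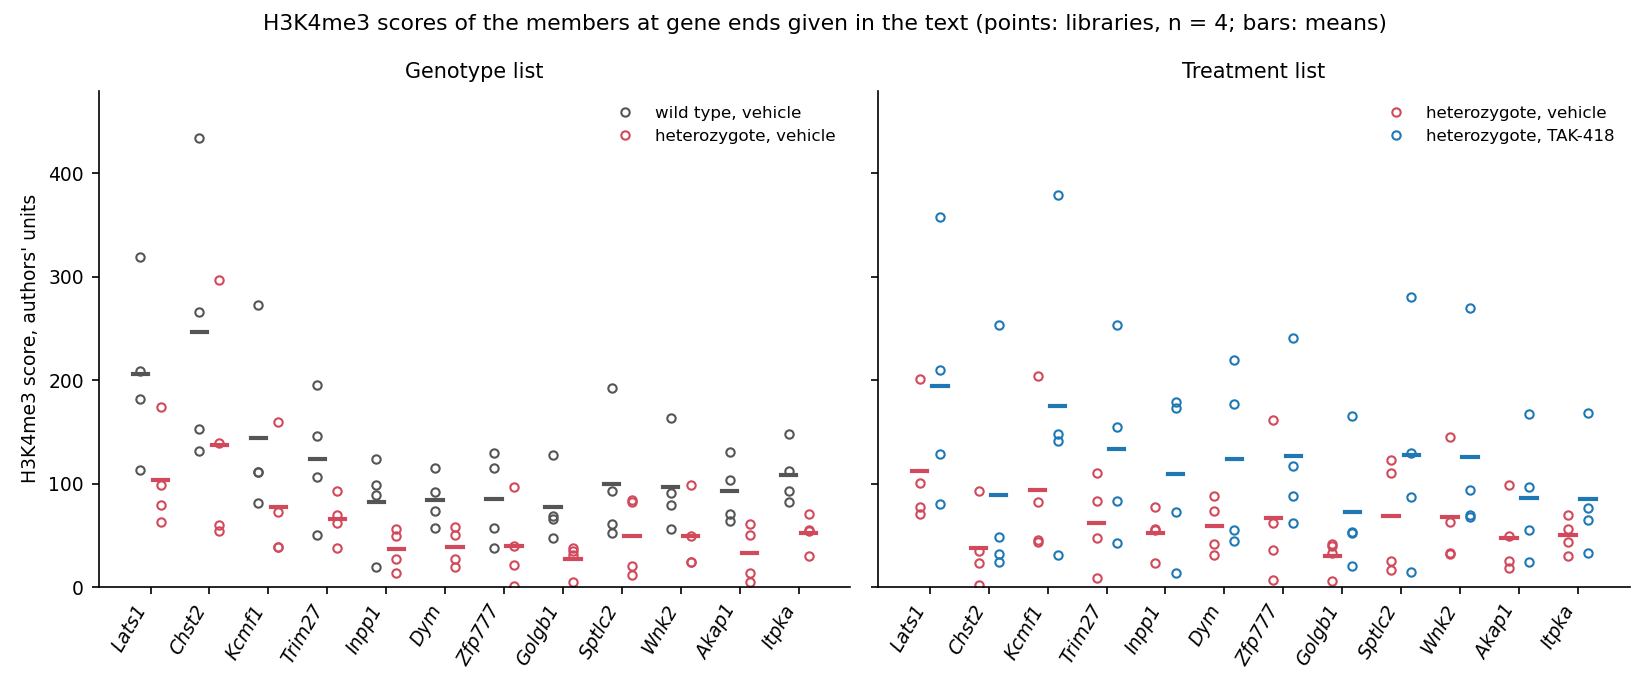
H3K4me3 score (y axis, authors' units, linear from 0) of the members at gene ends given in the text, with 1 point per library (n = 4 per group) and bars at the means. In the genotype list the wild type and heterozygote vehicle scores of Golgb1, Akap1 and Itpka do not overlap, and in the treatment list 1 TAK-418 score stands above the others in most members.

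Golgb1, Akap1 and Itpka were the only members with no overlap between the wild type and heterozygote vehicle scores. Golgb1 encodes giantin, a large Golgi tether, and its member at chr16:36875301-36875650 scored 47, 66, 128 and 69 in wild type vehicle (77.5 ± 35) and 5, 38, 31 and 35 in heterozygote vehicle (27.2 ± 15.1). With TAK-418 it scored 20, 53, 165 and 52 (72.5 ± 63.5) beside 6, 42, 33 and 40 with vehicle (30.2 ± 16.6), so that the treatment groups overlapped. The fold of 0.352 was close to that of Akap1, at 0.351.

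Akap1 anchors protein kinase A at the outer mitochondrial membrane. The member over its start at chr11:88864201-88864600 scored 64, 104, 131 and 71 in wild type vehicle (92.5 ± 31) and 14, 61, 5 and 50 in heterozygote vehicle (32.5 ± 27.2). With TAK-418 the scores were 97, 24, 167 and 55 (85.8 ± 61.9) against 18, 99, 25 and 49. Itpka, an inositol trisphosphate kinase of dendritic spines that is abundant in the hippocampus, had its start within chr2:119742301-119742800. The scores there were 93, 148, 112 and 82 in wild type vehicle (109 ± 29), 55, 71, 54 and 30 in heterozygote vehicle (52.5 ± 16.9), and 76, 33, 168 and 65 with TAK-418 (85.5 ± 57.9) beside 56, 70, 44 and 30. In both genes the lowest TAK-418 score was at position 2 and the highest at position 3.

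Members were spread thinly over the pathways. Of 21883 protein-coding genes, 196 (0.896%) had a member within 2 kb of an end or start, and 1601 (7.32%) had any lower region there. None of 20 genes of H3K4 methyltransferase complexes had a member, although 4 had a lower region. Among 20 H3K4 demethylases and partners of LSD1, 2 had one: Kdm5b, which removes methyl groups from trimethylated H3K4, and Kdm2a, whose protein binds unmethylated CpG and demethylates H3K36. Kdm2a thus does not do what the name of the list says, and 1 member of the list fits it. The Kdm5b region scored 121, 255, 487 and 303 in wild type vehicle (292 ± 151) and 74, 312, 164 and 111 in heterozygote vehicle (165 ± 105), and lay also at an end of Mgat4e. The Kdm2a region had folds of 0.517 and 1.69.

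Of 30 chromatin remodellers and acetyltransferases, 1 had a member, at an inner start of Arid1a, which encodes a DNA-binding subunit of BAF complexes. Its scores were 135, 98, 213 and 151 in wild type vehicle (149 ± 47.9), 89, 149, 68 and 39 in heterozygote vehicle (86.2 ± 46.6) and 145, 34, 248 and 110 with TAK-418 (134 ± 88.9). No neurogenesis gene of 20, no clock gene of 21, no splicing factor of 69, no ion channel of 147 and no glutamate or GABA receptor of 45 had a member. Over all protein-coding genes the share with a member was 0.896%. Of 21 immediate early genes only Ier5 did, at folds of 0.587 and 1.53.

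Membrane traffic had the most members of the lists with over 100 genes, 9 of 190 (4.74%), beside 0.896% of all protein-coding genes. A lower region lay at 33 of its genes (17.4%), beside 7.32% of all genes, and neither difference was tested. The 9 genes were the small GTPases Rab10, Rab12, Rab6a and Rab8b, the Rab regulator Rab3gap2, the clathrin adaptor subunit Ap1g1, the translocon component Sec62, the sorting nexin Snx25 and the ESCRT ATPase Vps4a. The Rab6a region, at chr7:100607851-100608600, also covered an end of Mrpl48. Rab10 at chr12:3309351-3309650 scored 20, 64, 91 and 83 in wild type vehicle (64.5 ± 31.8), 42, 26, 18 and 38 in heterozygote vehicle (31 ± 11), and 19, 54, 159 and 40 with TAK-418 (68 ± 62.3). The folds of the 9 ran from 0.476 (Rab3gap2) to 0.675 (Vps4a) for the genotype and from 1.36 (Sec62) to 2.23 (Rab10) for the treatment.

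Ribosomal proteins had members at Rpl5 and Rpl36 among 103 genes, and the respiratory chain at Uqcrh and Atp5md among 100. Ubiquitin and proteasome genes had 4 of 188, Psma1, Ube2g1, Fbxo34 and Fbxo5. Psma1, a subunit of the proteasome core, had the largest treatment fold among the members at genes of the lists named here, 2.54, from 29, 56, 31 and 35 with vehicle (37.8 ± 12.4) to 61, 53, 217 and 53 with TAK-418 (96 ± 80.8). Its genotype fold was 0.461. Zinc finger genes had 4 of 398 (Zfp777, Zfp157, Zfp654 and Zfp988). The Zfp988 member lay 1834 bp from a gene end and 30297 bp from a start. It scored 225, 160, 46 and 185 in wild type vehicle, lowest at position 3 as most distal members were. Translation factors had 1 of 71 (Eif4ebp2), and the kinase list 1 of 139 by symbol (Cdk2ap1, which is itself no kinase). Over all protein-coding genes the share with a member was 0.896%.

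One score position per group was high at gene-end members, and it was the lowest at distal and recurrent members. At the 157 gene-end members position 3 of wild type vehicle was the highest of its group in 79% of members, position 2 of heterozygote vehicle in 89.2% and position 3 of heterozygote TAK-418 in 96.2%. The median scores by position were 71, 115, 173 and 106 in wild type vehicle and 60, 119, 51 and 45 in heterozygote vehicle. In the treatment list they were 55, 120, 48 and 48 with vehicle and 86, 39, 217 and 82 with TAK-418. Position 2 of TAK-418 was the lowest of its group in 73.9% of gene-end members.

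At the 166 distal members the order turned over. Position 3 of wild type vehicle was the lowest in 93.4%, position 2 of heterozygote vehicle in 76.5% and position 3 of TAK-418 in 86.7%, and position 2 of TAK-418 was the highest in 81.9%. Median scores were 282, 218, 78 and 203 in wild type vehicle and 240, 49, 188.5 and 77.5 in heterozygote vehicle, and 236, 413, 143.5 and 219.5 with TAK-418. Recurrent members had the same low positions, in 95.6% of wild type vehicle, 95.6% of heterozygote vehicle and 88.2% of TAK-418 cells.

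**Figure D3:**
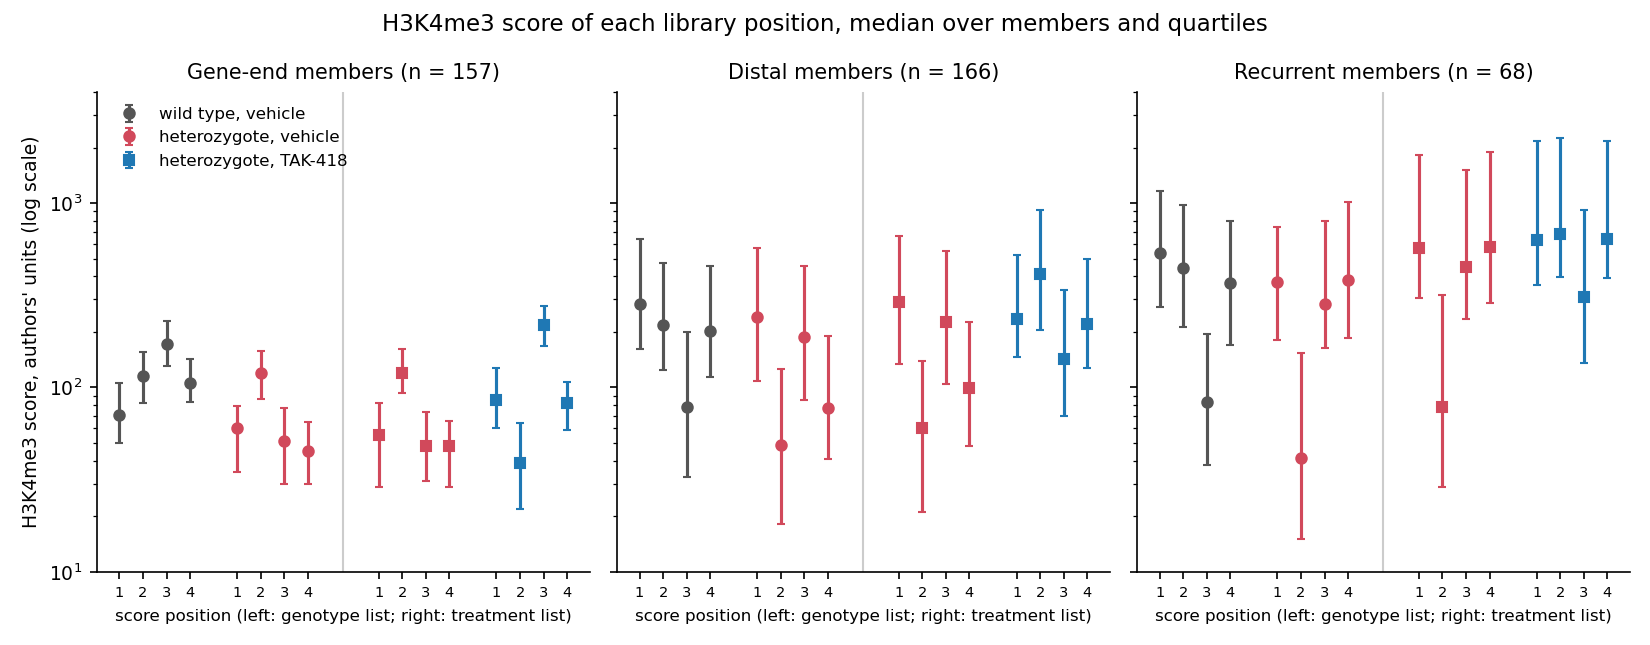
Median H3K4me3 score (y axis, authors' units, log scale) at each score position (x axis), with quartiles over members as bars, for gene-end, distal and recurrent members. Circles are the genotype list and squares the treatment list, and positions 3, 2 and 3 of wild type vehicle, heterozygote vehicle and TAK-418 are highest at gene ends and lowest at distal members in the genotype and treatment lists.

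When the position highest at gene ends was left out of all 3 groups, a choice made after the scores were seen, 384 of the 403 members kept both directions: 144 of 157 at gene ends, 164 of 166 distal and 65 of 68 recurrent. The median log2 ratios were then -0.62 and 0.45. With 3 scores against 3, 84 members had no overlap in the genotype list, beside 23.6% of its regions, and 44 in the treatment list, beside 8.4%. These values come from the scores that chose the members, so they are a description, and the number that kept both directions is no support for either.

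Most distal members also had similar proportions of the scores. The median share of the 4 positions in the group sum was 36.8%, 27.9%, 9.14% and 25.4% in wild type vehicle, and the quartiles of position 1 were 33.9% and 39.7%. In heterozygote vehicle the shares were 44.2%, 7.37%, 32.5% and 12.8%, and in heterozygote TAK-418 23.1%, 40.4%, 14.4% and 22.1%. The wild type vehicle mean of distal members ran from 17.8 to 220519 with a median of 197.5, and 24 exceeded 1000, while no gene-end member did. Single members had other proportions: the distal member nearest to Cr2 scored 797, 850, 909 and 855 in wild type vehicle, with position 3 the highest.

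The highest ranked distal member lay inside Trim30a, a TRIM family gene of innate immunity, at chr7:104427901-104428300. It scored 333139, 242706, 86383 and 219848 in wild type vehicle (220519 ± 101929) and 371966, 53592, 225005 and 110868 in heterozygote vehicle (190358 ± 140482), a fold of 0.863. In the treatment list the scores were 490742, 71502, 300003 and 127428 with vehicle and 278762, 487722, 203488 and 270401 with TAK-418, a fold of 1.25. The SD within each group exceeded the difference between the means in both lists.

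The distal member inside Xrcc4, a gene of DNA end joining, stood at chr13:89868201-89868600 with 14349, 10805, 3429 and 9360 in wild type vehicle (9486 ± 4549) and 13316, 2137, 9744 and 3806 in heterozygote vehicle (7251 ± 5197). With TAK-418 it had 11478, 20086, 7726 and 10334 beside 15844, 2575, 11141 and 4353. The shares of the 4 wild type positions were 37.8%, 28.5%, 9.04% and 24.7%, next to 37.8%, 27.5%, 9.79% and 24.9% at Trim30a, whose scores were far higher. The other top distal members lay inside Ctnnd2, near Ctnna2 and 1074006 bp from the nearest gene end, that of Flrt2, with folds of 0.708 to 0.767 and 1.4 to 1.52.

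Ate1 and Pitpnc1, placed at gene ends by distance, had the distal order of scores. The Ate1 member scored 887, 758, 268 and 786 in wild type vehicle (675 ± 277) and 837, 176, 750 and 188 in heterozygote vehicle (488 ± 355). One distal member, 372338 bp from an end of Csmd1 at chr8:15519851-15520200, was the only member with no overlap in the treatment list. Its scores were 108, 76, 144 and 126 with vehicle and 167, 174, 159 and 152 with TAK-418 (163 ± 9.56), so that every TAK-418 score was above every vehicle score.

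H3K4me1, measured in the same mice, was not used to choose the members, and distal members were often listed there. The H3K4me1 libraries had few called peaks, 88 to 456 each, and in each library 35 to 68 of the 68 recurrent members overlapped one. Recurrent regions are defined by peaks in libraries of both marks, so these counts follow in part from the definition. The listings below rest on the H3K4me1 libraries. In the list of heterozygote against wild type vehicle, 136 of 166 distal members were listed, 126 lower in heterozygotes and 10 higher. Of all 781 regions of that list, 49.6% were lower and 50.4% higher. Of the 79 distal regions that were lower in H3K4me3 but not members, 17.7% overlapped a lower H3K4me1 region and 2.53% a higher one. With TAK-418 in heterozygotes, 70 distal members were listed in H3K4me1, 66 higher and 4 lower, beside 61.1% higher and 38.9% lower among all 545 regions of the list. Over all distal regions, listed or not, 39.8% of members were higher and 2.41% lower, beside 3.8% and 2.53% of the others. Both directions together, lower then higher, held for 58 distal members. These 2 H3K4me1 lists share the heterozygote vehicle libraries too. At gene ends 3 members were listed lower and 1 higher for the genotype, beside 0.0874% lower and 0.0874% higher among the other lower regions at gene ends.

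No H3K4me1 region passed a test in these libraries. Limma on log2(score + 1), with Benjamini-Hochberg adjustment over each whole list, called 0 of 781 regions for the genotype and 0 of 545 for TAK-418 in heterozygotes, with lowest adjusted p of 0.412 and 0.441. At an unadjusted p under 0.05 there were 41 (5.25%) and 47 (8.62%) regions in all, of which 0 of 136 and 2 of 70 overlapped distal members. The authors' own −log10 p had admitted every region of these lists.

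In the H3K4me1 regions at distal members, positions 2 and 3 of heterozygote vehicle were low. Medians were 554.5, 462.5, 319.5 and 303.5 in wild type vehicle and 573.5, 29, 110 and 435 in heterozygote vehicle. Without position 2 of heterozygote vehicle, 107 of the 126 stayed lower. In the treatment list, 29 of the 66 stayed higher without that position and 39 without position 3 of the vehicle group. At the Pitpnc1 region the H3K4me1 scores were 1841, 1701, 1601 and 904 in wild type vehicle (1512 ± 417) and 1861, 37, 254 and 1386 in heterozygote vehicle (884 ± 880), with a limma log2 difference of -1.88 ± 1.15 (SE) and an adjusted p of 0.412.

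Joining all 403 members within 100 kb of each other left 341 loci. The largest group held 26 members, 23 of the 68 recurrent ones among them, in chr1:85011401-85346400, a stretch with A530032D15Rik, C130026I21Rik and several pseudogenes. Another 12 members, 10 of them recurrent, lay in chr11:3101101-3198000 at Sfi1 and Pisd-ps1, and 3 members in chr17:39843551-39848650 over Rn18s-rs5, a pseudogene of 18S ribosomal RNA. The 3 members at Rn18s-rs5 overlapped 1 and the same treatment region.

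One of the members over Rn18s-rs5 scored 9538, 8575, 2750 and 7857 in wild type vehicle and 7828, 3402, 7650 and 7584 in heterozygote vehicle (6616 ± 2145), a fold of 0.921. At the highest scoring member, a recurrent region 357046 bp from the nearest gene end, that of Zwint, the 4 wild type vehicle positions took 37.8%, 27.9%, 9.7% and 24.6% of the sum, as at Trim30a and Xrcc4. In H3K4me1 recurrent members went the other way from distal ones for the genotype, 41 of 68 listed higher in heterozygotes and 7 lower, and were divided with TAK-418 in heterozygotes, 23 higher and 28 lower.

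In the list of wild type mice given TAK-418 against vehicle, which the rule did not use, distal members were mostly higher and gene-end members were divided. Of the 166 distal members 99 were listed, 86 overlapping a higher H3K4me3 region and 13 a lower one. Among all 2780 regions of that list 63.6% were higher and 36.4% lower. Over all distal regions, listed or not, 51.8% of members were higher and 7.83% lower, beside 11.4% and 30.4% of the others. Of the gene-end members, 29 of 157 were higher and 35 lower, whereas the other gene-end regions that were lower in heterozygotes had 61 of 1144 (5.33%) higher and 462 (40.4%) lower. In H3K4me1 the distal members went the opposite way with TAK-418 in wild type mice. Of the 87 listed, 77 were lower and 10 higher, beside 46.7% lower and 53.3% higher in that list. Listed or not, 46.4% of distal members and 7.59% of the other distal regions were lower. The H3K4me3 list shares the wild type vehicle libraries with the genotype contrast. The H3K4me1 list likewise shares its wild type vehicle libraries with the H3K4me1 genotype list, so their listings are not independent. Limma called 0 of the 538 H3K4me1 regions, with 52 (9.67%) at an unadjusted p under 0.05.

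TAK-418-treated heterozygotes were also set against vehicle wild types. There 55 of 157 gene-end members were still listed lower and 5 higher, against 955 of 1144 (83.5%) lower among the other gene-end regions. The median log2 ratio of the 60 listed gene-end members was -0.47. Of the 57 distal members in the list 52 were higher and 5 lower, and of the 56 recurrent ones 50 were higher and 6 lower. The whole list of 2722 regions had 72.4% lower and 27.6% higher. Listed or not, 3.01% of distal members and 58.2% of the other distal regions were lower. A member was chosen for a high heterozygote TAK-418 mean, so the smaller share of lower members follows in part from the rule. In H3K4me1, 108 distal members were listed in the same comparison, 101 lower and 7 higher, beside 47.9% lower and 52.1% higher in the list. Listed or not, 60.8% of distal members and 11.4% of the other distal regions were lower. Limma called 0 of those 656 regions, with 102 (15.5%) at an unadjusted p under 0.05. That H3K4me1 list too shares the wild type vehicle libraries with the H3K4me1 genotype list.

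**Figure D4:**
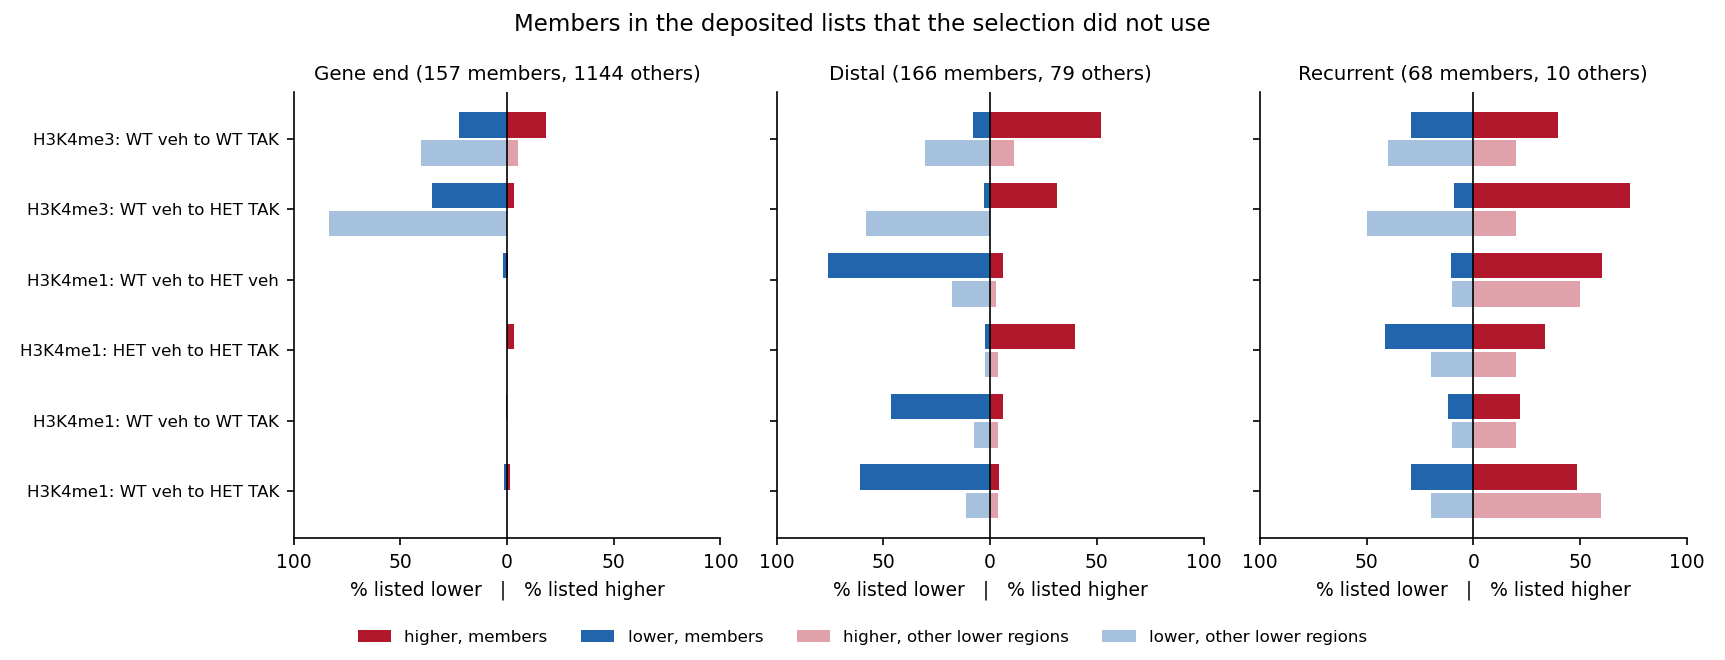
Share of regions (x axis, %) listed lower (left, blue) or higher (right, red) in the second group of each list the rule did not use, for members (dark) and other lower regions (light) by class. Distal members were listed higher in H3K4me3 with TAK-418 in wild type mice (51.8%) and lower in the H3K4me1 genotype list (75.9%).

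Called peaks were frequent at gene-end members in 4 libraries and rare at distal members in all. In the 4 H3K4me3 libraries with many peaks, between 152 and 154 of the 157 gene-end members overlapped a peak, while in the 12 others the number ran from 1 to 70 with a median of 12. Distal members rarely had a peak in either kind of library, 12 to 21 of 166 and 6 to 26, and 133 of 166 had none in any of the 16 H3K4me3 libraries. The other distal regions had one in 65.8% to 72.2% of cases in the 4 libraries with many peaks. In the H3K4me1 libraries 0 to 4 gene-end members and 0 to 14 distal members had a peak. The authors' median fold enrichment of the peaks at gene-end members was 5.02 to 8.77 in the 4 libraries and 4.28 to 5.52 in the 12. Each group had 1 of the 4, and the lists do not say which score belongs to which library.

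**Figure D5:**
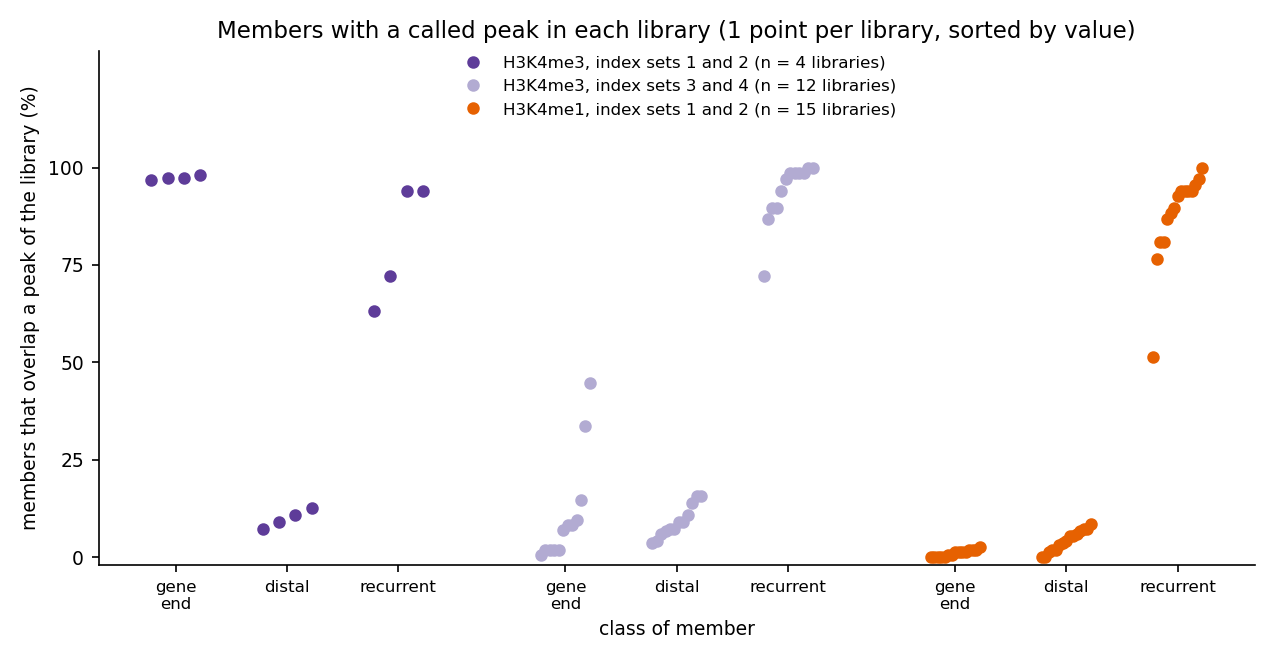
Share of members that overlapped a called peak (y axis, %), with 1 point per library, for gene-end, distal and recurrent members and by mark and index sets. Gene-end members had a peak in 96.8% to 98.1% of cases in the 4 H3K4me3 libraries with many peaks (index sets 1 and 2), and distal members in at most 15.7% in any library. Recurrent members were defined by peaks in these libraries.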

How the data were processed

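H3K4me3 and H3K4me1 ChIP-seq of 16 mice gave 31 libraries. Members, gene lists and tests were chosen with earlier results of these data known. The lists of differential regions hold 1 whole-number score per library, deposited by the authors in normalized units with the normalization not given in the sources used here, and a −log10 p by the authors of at least 1.3. Peak lists, 1 per library, hold the authors' fold enrichment, a ratio, with a −log10 p and −log10 q per peak. The submitters' processing notes name mm10, MACS2, MACS and bedtools, with no version. Read counts were not used here, so depth is unknown and no counting interval is given. Lists that name no mark were treated as H3K4me1: where they include wild type TAK-418 they hold 3 scores for it, as many as its H3K4me1 libraries.

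Coordinates are 1-based. Genes and starts came from RefSeq (GRCm38.p6), with 21883 protein-coding genes. Classes were assigned by place, in the order recurrent, gene end (2 kb), inner start, distal; 232 recurrent regions covered 356.8 kb. Log2 ratios are of group means with a pseudocount of 1. H3K4me1 lists were tested with limma 3.58.1 in R 4.3.3, on log2(score + 1), at an adjusted p of 0.05. On simulated data with 4-fold changes in 200 regions of each list, all 200 were recovered, with 4 to 12 false calls per list. Smaller changes were not simulated. The simulated spread between libraries was fixed and smaller than the measured one at distal members such as Xrcc4, with a limma SE of 1.06 for the genotype. The recovery therefore does not show what limma could find in the measured scores. Python 3.11.15 was used for the rest. Labels carry mouse numbers but no replicate numbers, and they do not say whether litters or days were shared. The limma p-values measure the spread between these mice. How the authors' p treats that spread is not given in the sources used here. At Trim30a the authors' −log10 p was 56.9 for the genotype and 174 for the treatment, although the groups overlapped in both lists. Members were ranked by the smaller −log10 p of both lists: the 12 first at gene ends, 5 away from them, 2 recurrent, all without overlap of the groups and those of the gene lists were to be named. All members in H3K4me1 lists outside recurrent regions were to be named too; there were 156, and they are summarised. Which list genes are given with all scores was decided after their values were seen, as were the inner-start class and the checks that leave out score positions. Adjusted p-values run over lists that already hold only regions past the authors' p. Alternatives are in the closing section.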

Additional observations from a re-analysis of the deposited data

Results flagged for a closer look

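For the 48 members named by rank, by groups without overlap or by the gene lists, 192 groups of 4 scores were checked for a score far from the other 3, by Dixon's ratio at its 95% critical value. There were 16 such scores, and about 1 in 20 groups is found by chance. With TAK-418 a single high score stood at position 3 in 7 gene-end members: 253 at Chst2, 270 at Wnk2, 217 at Psma1, 172 at Fbxo34, 222 at Rpl5, 238 at Ier5 and 314 at Ube2g1. In wild type vehicle a high score stood at position 3 at Kcmf1 (273), at Vps4a (188) and at the region of Kdm2a and 9430078G10Rik (223). In heterozygote vehicle it stood at position 2, at Psma1 (46), Rab12 (120) and the region of Uqcrh and Lrrc41 (279). These are the positions that were highest at most gene-end members, and the lists do not say which libraries they are. Zfp988 had the reverse, with a low TAK-418 score of 64 at position 3. At the recurrent region over Rn18s-rs5, nearest to Esp38, the heterozygote vehicle scores of 3402 in the genotype list and 10967 in the treatment list lay far below the others, both at position 2.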

How the results depend on the processing

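The 403 members became 118 when identical borders were required in both lists and 227 with a −log10 p of at least 2 in both, fewer because the rules are stricter; with an overlap of at least 50% of the shorter region, all chromosomes, median scores, joining within 1 kb or without recurrent regions the number lay between 335 and 406. Leaving out 1 score position gave 322 to 474 members, and leaving out the position highest at gene ends in all groups, added after seeing the data, gave 385. The share in recurrent regions, 16.9%, was 12.7% with peaks in 12 or more libraries required for both marks. With 1 position left out the median log2 ratios ran from -0.77 to -0.49 in the genotype list and from 0.48 to 0.73 in the treatment list; the rule chose the members by these signs, so the ranges show no stability. Limma called 0 regions of each H3K4me1 list, and 1 of 538 in wild type TAK-418 against vehicle with log2(score + 10); with 1 position left out the calls ran from 0 to 1 there (1 without position 4 of wild type vehicle) and stayed at 0 in the other 3 lists. Distal members listed lower in H3K4me1 in heterozygotes numbered 107 to 126, and those listed higher with TAK-418 29 to 66, when 1 position was left out, a check added after seeing the data. No paired analysis was made between groups, since each group holds different mice. Both marks were measured in the same mice, but their scores could not be paired by mouse because they do not name their library. The cause of these shifts was not tested. Depth is unknown, so how far it limits the scores of about 100 at gene ends could not be given.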
